A study of Homo sapiens with 9 samples.

Results

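The genes described here encode the proteins of the cytosolic ribosome. They were taken by name, as every probe set of the array with a single gene symbol that fits a rule. The symbol had to be RPL or RPS followed by a number and optionally A or X, or RPLP0, RPLP1, RPLP2 or RPSA. The mitochondrial ribosomal proteins and paralogs with an L suffix were left aside. The rule found 52 genes, read by 111 of 54613 probe sets, with 32 of the large and 20 of the small ribosomal subunit. A further 64 probe sets carried the symbol of a ribosomal protein among several symbols and were left out, so that 15 genes, among them RPL5, RPL10 and RPS20, were seen on such probe sets alone and are not analysed here.

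RNA was measured on Affymetrix HG-U133 Plus 2.0 arrays in human breast cancer cell lines, with 3 arrays per line. B6TC cells were GFP positive and estrogen-independent, and the labels name them a fusion of the other lines. The study grew them from an estrogen-independent tumor that B6 cells, recovered from the bone marrow of a single mouse, had formed in nude mice. It selected them in medium with G418 and found most of them resistant to both puromycin and G418. MDA-MB-231/GFP/Neo cells were ER negative, resistant to G418 and a clone of GFP-transfected cells, and ZR-75-1/GFP/puro cells were ER positive and resistant to puromycin. All lines were grown in McCoy's 5A medium with fetal bovine serum, and the labels give no treatment. The arrays of a line are labelled as technical replicates, so the p-values measure only the spread between labelings or hybridizations of a line and not between cultures, and a line cannot be told apart from the culture, extraction or labeling that it came with. In RNA of whole cultures, less RNA per cell cannot be told apart from fewer cells that hold it. Values are log2 expression levels, and a difference of 1 is a doubling.

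The cytosolic ribosome is built of a small subunit, which reads the mRNA, and a large subunit, which joins the amino acids. Each holds ribosomal RNA and a set of proteins, most of which are needed in equal numbers. The mRNAs of these proteins are among the most abundant of a growing cell. They typically begin with a C and a run of pyrimidines, the terminal oligopyrimidine (TOP) tract, through which mTOR signaling and LARP1 adjust their translation together. Ribosomal protein genes have many processed pseudogenes, and a probe set with the suffix _s_at or _x_at may bind several transcripts.

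The start sites of genes on which the comparisons turn are shown because the tract is what most of these mRNAs share. Each sequence is the strand of the gene in GRCh38.p14 from RefSeq, 30 bases with 15 before the annotated start, and capitals mark a C followed by at least 4 pyrimidines that begins within 5 bases of that start, searched on this strand only. RPS6, RPL29, RPL31, RPS23, RPL22, RPL36 and RPL19 carried such a run, and RPS4X, RPL27 and RPL9 did not.
RPS6, chr9:19380222-19380251, minus strand: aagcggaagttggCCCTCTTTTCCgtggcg
RPL29, chr3:51995881-51995910, minus strand: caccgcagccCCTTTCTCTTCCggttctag
RPL31, chr2:101002274-101002303, plus strand: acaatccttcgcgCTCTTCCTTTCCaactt
RPS23, chr5:82278340-82278369, minus strand: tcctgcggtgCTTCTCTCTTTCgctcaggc
RPL22, chr1:6199581-6199610, minus strand: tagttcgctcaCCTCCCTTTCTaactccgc
RPL36, chr19:5690280-5690309, plus strand: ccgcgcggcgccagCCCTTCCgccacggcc
RPL19, chr17:39200308-39200337, plus strand: gagcgagctctttCCTTTCgctgctgcggc
RPL27, chr17:42998404-42998433, plus strand: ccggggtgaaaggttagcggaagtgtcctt
RPL9, chr4:39458908-39458937, minus strand: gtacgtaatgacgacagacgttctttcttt
RPS4X, chrX:72277234-72277263, minus strand: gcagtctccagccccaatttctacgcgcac

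RPL19 has 2 listed starts, of which the second is shown. Of the 52 genes, 46 were matched in the promoter table, and 40 of them (87%) had the run at a listed start, against 25.2% of all 27305 genes of the table. Counted by start, the shares were 83% of 53 and 21.1% of 35116. Where a run was found it had a median length of 10.5 bases in the ribosomal protein genes and 6 bases over the whole table. The 6 matched genes without a run at a listed start were RPL6, RPL9, RPL27, RPS4X, RPS15 and RPS29, which says only that the letters were not in this window. Genes of the mitochondrial ribosomal proteins, which serve a separate ribosome, held it in 22.4% of 67 cases.

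Ribosomal protein mRNAs were read near the top of the scale in every line. The brightest probe set, by its mean over all arrays, stood for a gene, and 50 of the 52 genes had a probe set that reached a log2 level of 6 on at least 3 of the 9 arrays and was tested. Over these genes the median log2 level was 13.18 to 13.21 on the B6TC arrays, 13.16 to 13.23 on the MDA-MB-231 arrays and 13.08 to 13.14 on the ZR-75-1 arrays, so that the ranges of B6TC and MDA-MB-231 overlapped. In 48 of the 50 genes the level was 12 or more in all lines, and 49 lay above the 95th percentile of all 54613 probe sets, tested or not, on every array. The other 2 were RPL36, whose probe set averaged 11.74, and RPL27A, whose probe set averaged 7.83. Arrays of a line differed little here, with a median SD of 0.0301 over the 93 tested member probe sets and 0.0644 over all 21095 tested probe sets. RPL36A and the stalk protein gene RPLP2 had no tested probe set, and the 18 untested probe sets averaged at most 5.82. Levels of different genes are not compared, since each probe set binds with its own strength.

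Of facts that concern the whole series, the cells carried the markers of breast epithelium unequally. Of 10 luminal epithelial markers, B6TC had 8 at a mean log2 level of 6 or more, MDA-MB-231 had 7 and ZR-75-1 had 10. In B6TC, TFF1 passed through replicate 3 alone (5.04, 4.98 and 9.08). CDH1 (3.38, 3.26 and 6.89) and GATA3 (8.19, 8.22 and 9.54) were also highest in that replicate. So were KRT19 (7.59, 7.61 and 8.42), KRT8 (7.90, 7.92 and 8.51) and EPCAM (8.18, 8.15 and 8.72), and by less KRT18, FOXA1 and PGR. Of the listed luminal markers only ESR1 was not (6.46, 6.21 and 6.24), on a probe set near the filter level of 6 in B6TC. The cause of this difference between arrays of B6TC was not tested. Of 10 mesenchymal markers, B6TC had 9 at that level, MDA-MB-231 had 9 and ZR-75-1 had 2. None of 8 blood cell markers reached it in any line, and of 10 endothelial and fibroblast markers 2 did in B6TC, 3 did in MDA-MB-231 and 1 did in ZR-75-1. Bacterial poly-A spike-in probe sets had a mean log2 level of 9.08 in B6TC. The mean was 5.68 for MDA-MB-231 arrays and 7.54 for ZR-75-1 arrays. The 3′ probe set of ACTB exceeded its 5′ probe set by a log2 difference of 0.67 in B6TC, by 0.32 in MDA-MB-231 and by 0.73 in ZR-75-1. These values move with the lines, and their part in the differences given here was not tested.

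B6TC cells differed from MDA-MB-231 cells in a smaller share of ribosomal protein genes than of all genes, and mostly by little. Of the 93 member probe sets 14 were higher and 23 lower in B6TC, that is 39.8% called by limma, against 65.1% of all tested probe sets (33.9% higher, 31.3% lower). Lower calls outnumbered higher ones in these values (37.8% of the calls were higher), but not after a further quantile normalization (53.3% higher). The median log2 difference over the members was -0.02 as deposited, 0.02 with arrays centered on their medians and 0.04 after quantile normalization, so it has no settled direction. Its counterpart over all tested probe sets was 0.0086 as deposited, 0.049 with centered arrays and -0.014 after quantile normalization. The members thus lay below it as deposited and with centered arrays, and above it after quantile normalization. The median absolute difference was 0.08 for the members and 0.26 for all tested probe sets. Arrays of the lines did not overlap in 60 of the 93, against 70.4% of all tested probe sets. With 1 probe set per gene, 5 of 50 genes were higher and 8 lower (26%, against 65% of all genes), and none reached 2-fold. The count depends on the probe sets used. With the mean of a gene's probe sets, 8 of 50 genes were higher and 15 lower, where 66.2% of all genes were called.

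The genes that rose in B6TC against MDA-MB-231, by the probe set that represented each, were RPL30, RPS25, RPL11, RPL3 and RPL27. RPL30, a protein of the large subunit that lies at the interface with the small one, was at 13.15, 13.17 and 13.15 on the B6TC arrays, against 12.87, 12.88 and 12.87 on the MDA-MB-231 arrays. These arrays did not overlap, and the difference was 0.29 ± 0.041 (SE, adjusted p = 0.000176). RPS25, which helps some viral internal ribosome entry sites to recruit the small subunit, was at 13.11, 13.13 and 13.04 in B6TC and at 13.00, 12.83 and 12.87 in MDA-MB-231, a difference of 0.19 with the highest MDA-MB-231 array close below the lowest B6TC array. RPL11, which joins 5S ribosomal RNA and can bind MDM2, differed by 0.13 (adjusted p = 0.0168). RPL3, near the peptidyl transferase center, and RPL27 each differed by 0.12, and their adjusted p-values were 0.0437 and 0.0234.

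The genes that fell in B6TC against MDA-MB-231, by the probe set that represented each, were RPL9, RPL36, RPL35, RPS14, RPL29, RPL35A, RPS29 and RPL6. RPL9 was at 12.60, 12.48 and 12.53 on the B6TC arrays, against 12.94, 12.85 and 12.80 on the MDA-MB-231 arrays. Every B6TC array lay below every MDA-MB-231 array, and the difference was -0.33 ± 0.053 (SE, adjusted p = 0.000327). RPL36 was at 11.69, 11.77 and 11.71 in B6TC and at 12.09, 12.03 and 11.99 in MDA-MB-231, a difference of -0.32 (adjusted p = 0.000147). RPL35, which lies by the exit of the peptide tunnel, was at 12.75, 12.73 and 12.73 in B6TC and at 13.24, 12.95 and 12.96 in MDA-MB-231, so that replicate 1 of MDA-MB-231 stood above its other arrays. RPS14, a protein of the small subunit whose gene lies in the region lost in the 5q- syndrome, differed by -0.21, RPL29 by -0.17, RPL35A by -0.15, RPS29 by -0.12 and RPL6 by -0.11. RPL35A has no settled direction, since its probe set without a suffix, 238026_at, was higher in B6TC by 0.47 (adjusted p = 0.00272). Other calls were near the threshold. Without replicate 1 of B6TC the adjusted p was 0.144 for RPL3, 0.071 for RPL27, 0.0569 for RPL35A, 0.0533 for RPS29 and 0.0812 for RPL6, and without replicate 3 of B6TC it was 0.0516 for RPL11. Without replicate 2 of B6TC, or of MDA-MB-231, it lay between 0.0662 and 0.108 for RPL3, RPL27 and RPL6, and for RPL3 and RPL6 it was also above 0.05 without replicate 3 of MDA-MB-231 (0.109 and 0.065). RPL3 was at 0.0558 without replicate 1 of ZR-75-1, and RPL6 at 0.0631 without replicate 3 of B6TC. RPL6 was also above the threshold with the replicate block (0.0573), cyclic loess (0.0604), centered arrays (0.172) and quantile normalization, where its difference was -0.06 (0.225). Centered arrays took RPL35A to 0.0913 and RPS29 to 0.111, and without a filter on level all 6 genes lost the call, at 0.0764 to 0.153. RPL30, RPS25, RPL9, RPL36, RPL35, RPS14 and RPL29 were called under the filters, models, scalings, block and left-out arrays that tested the same probe set, but none of them reached 2-fold. The plot of log2 differences by gene sets these changes beside those against ZR-75-1.

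**Figure D1:**
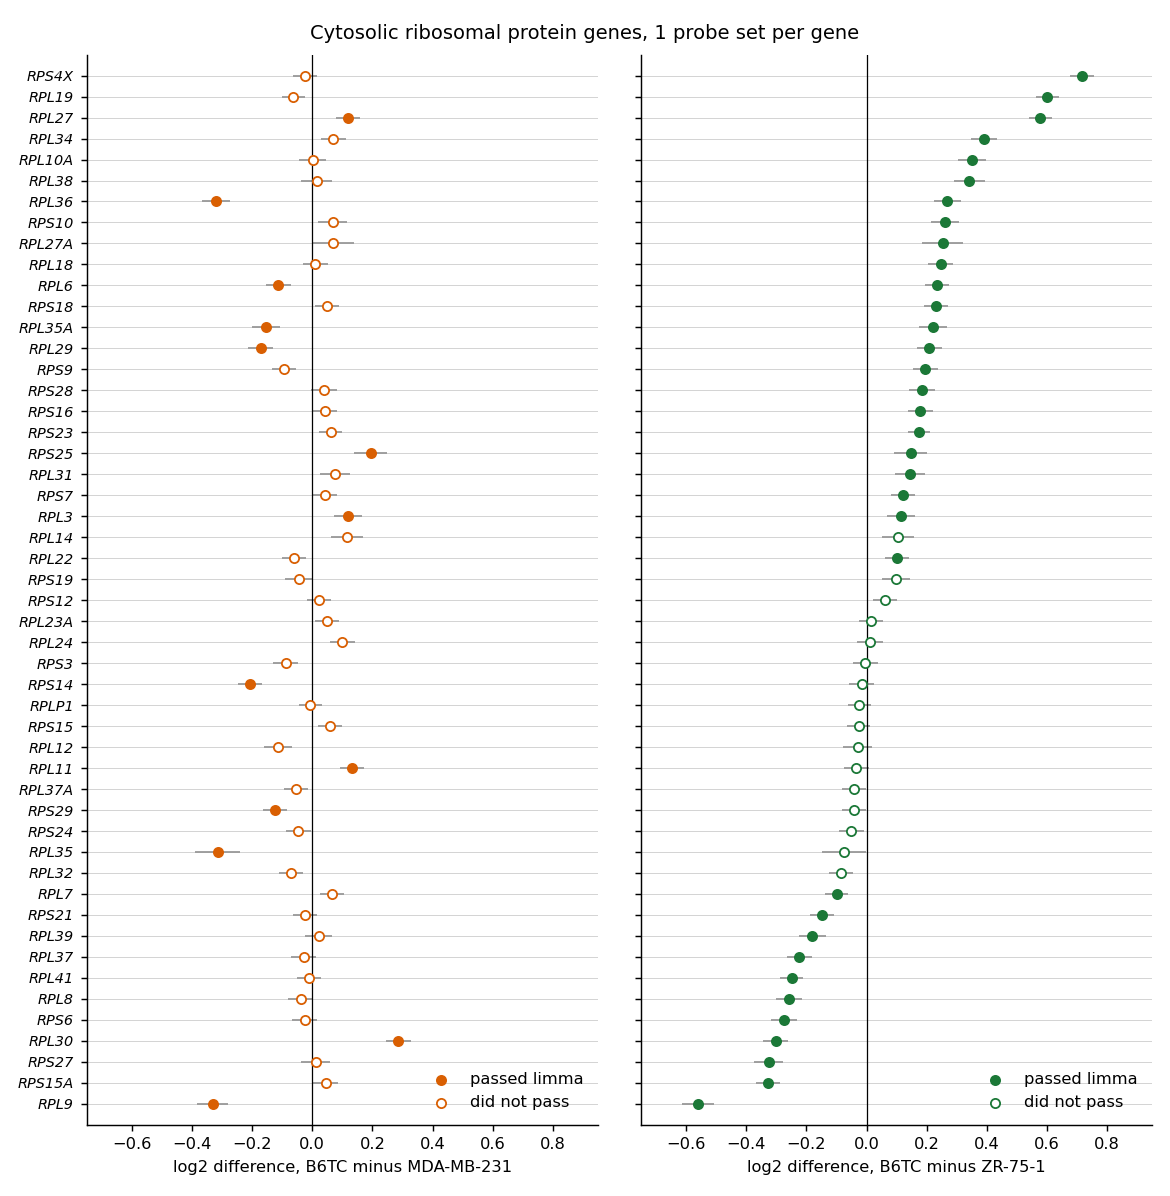
Log2 difference of each of the 50 tested ribosomal protein genes, 1 probe set per gene, for B6TC minus MDA-MB-231 (left) and B6TC minus ZR-75-1 (right), with bars of 1 SE and filled points where limma's adjusted p was 0.05 or less. Genes are ordered by the difference from ZR-75-1, where RPS4X (0.72) and RPL9 (-0.56) form the ends, and against MDA-MB-231 the furthest gene is RPL9 (-0.33).

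Against ZR-75-1, B6TC cells had more of many ribosomal protein mRNAs and less of a smaller group. Of the 93 probe sets 46 were higher and 19 lower in B6TC (69.9%, against 83.7% of all tested probe sets, 43% higher and 40.6% lower), and 70.8% of these calls were higher (59.4% with cyclic loess scaling). The median log2 difference was 0.10, against 0.0074 over all tested probe sets, and it was positive under each scaling tried, at 0.05 with cyclic loess. Over the 25 member probe sets without a suffix it was 0.0196, below the 0.0379 of all probe sets of that kind. The median absolute difference was 0.20 for the members and 0.59 for all tested probe sets. Arrays did not overlap in 78 of the 93, against 86.5% of all tested probe sets. With 1 probe set per gene, 23 of 50 genes were higher and 11 lower (68%, against 84.4% of all genes).

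RPS4X, the X-linked gene of a small subunit protein, was at 13.52, 13.53 and 13.48 on the B6TC arrays, against 12.76, 12.81 and 12.80 on the ZR-75-1 arrays. The difference was 0.72 ± 0.041 (SE, adjusted p = 4.48e-08), or 1.64-fold. Its second probe set differed by 0.82. RPL19, a large subunit protein on chromosome 17, was at 13.41, 13.40 and 13.39 in B6TC and at 12.82, 12.78 and 12.80 in ZR-75-1, a difference of 0.60 ± 0.038 (SE, adjusted p = 1.12e-07). RPL27, also on chromosome 17, was at 13.51, 13.51 and 13.47 in B6TC and at 12.94, 12.91 and 12.91 in ZR-75-1, a difference of 0.58. In these 3 genes the arrays of the lines lay far apart relative to the spread within a line, with SDs of 0.012 to 0.028. The next genes were RPL34 (0.39), RPL10A (0.35), RPL38 (0.34), RPL36 (0.27) and RPS10 (0.26).

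RPL9, a large subunit protein, was furthest below ZR-75-1 of the 50 genes. The B6TC arrays were at 12.60, 12.48 and 12.53, against 13.06, 13.13 and 13.10 for ZR-75-1, a log2 difference of -0.56 ± 0.053 (SE, adjusted p = 2.63e-06). RPS15A differed by -0.33, RPS27 by -0.32, RPL30 by -0.30, RPS6 by -0.27, RPL8 by -0.26, RPL41 by -0.25 and RPL37 by -0.22. The probe sets of RPS15A differed in sign, so that its direction is not settled. RPS6 encodes the small subunit protein that S6 kinase phosphorylates downstream of mTOR. It was at 12.75, 12.75 and 12.79 in B6TC, against 13.07, 13.06 and 12.98 in ZR-75-1, and its highest B6TC array remained below the lowest ZR-75-1 array.

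**Figure D2:**
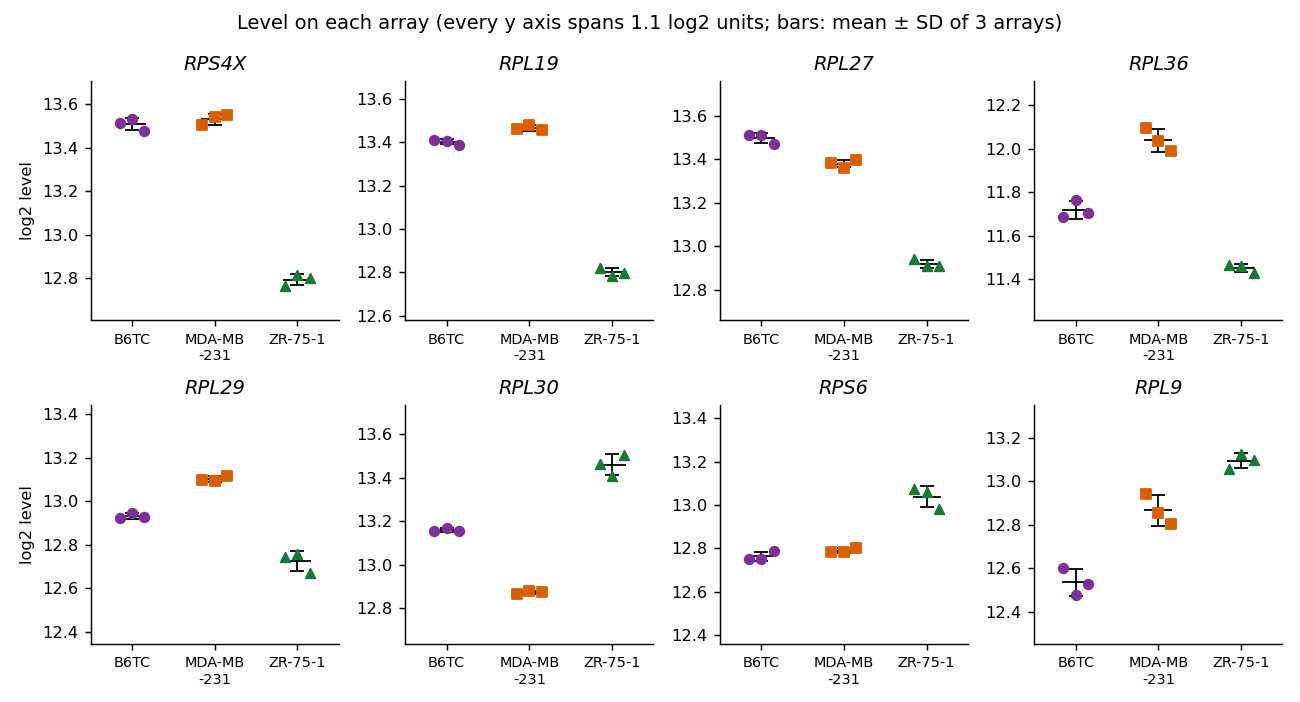
Log2 level on each array of 8 ribosomal protein genes in B6TC (circles), MDA-MB-231 (squares) and ZR-75-1 (triangles), with the mean and SD of 3 arrays, all y axes spanning the same range. RPS4X and RPL19 sit at a like level in B6TC and MDA-MB-231 and lower in ZR-75-1, RPL36, RPL29 and RPL30 have B6TC between the other lines, and RPL9 is lowest in B6TC.

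The comparison of MDA-MB-231 with ZR-75-1 shares arrays with both comparisons above. MDA-MB-231 had 50 probe sets higher and 21 lower than ZR-75-1 (76.3%, against 83.7% of all tested probe sets, 43.8% higher and 39.9% lower), with a median of 0.14 against 0.032. Arrays did not overlap in 78 of the 93 (84.9% of all tested probe sets), and 3 reached 2-fold (31.5% of all). With 1 probe set per gene, 22 of 50 were higher and 12 lower (68%, against 84.4% of all genes). RPS4X differed by 0.74, RPL19 by 0.66, RPL36 by 0.59, RPL27 by 0.46, RPL29 by 0.38, RPL35A by 0.37, RPL10A by 0.35 and RPL6 by 0.35. RPL30 differed by -0.59, RPS15A by -0.37, RPS27 by -0.34, RPS6 by -0.25, RPL41 by -0.24, RPL9 by -0.23, RPL8 by -0.22 and RPL39 by -0.20.

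Set against both lines, a ribosomal protein gene of B6TC most often differed from ZR-75-1 alone. That was so for 25 of 50 genes (50%), against 28% of all genes, and for 36 of the 93 member probe sets (38.7%), against 27.8% of all tested probe sets. By the probe set that represented a gene, RPL27, RPL3 and RPS25 were above both lines (6%, against 20.1% of all genes). RPL9 alone was below both on that basis (2%, against 14.6%). Dimmer probe sets of RPS6 were also called below both, 209134_s_at by -0.38 and -0.48 and 200081_s_at by -0.34 and -0.49 from MDA-MB-231 and ZR-75-1. So were RPL37A 213459_at (-0.25 and -0.60) and RPS10 214001_x_at (-1.06 and -0.18). Dimmer probe sets of RPL18, RPL22, RPL31, RPL35A, RPS15A and RPS28 were called above both. Of the 93 member probe sets, 9 were above both (9.68%, against 18.6% of all tested probe sets) and 5 below both (5.38%, against 15.4%). By the probe set that represented a gene, RPL6, RPL29, RPL30, RPL35A and RPL36 lay between the lines and differed from each (10%, against 21.8% of all genes). RPL11, RPL35, RPS14 and RPS29 differed from MDA-MB-231 alone, and in RPS19, mutated in Diamond-Blackfan anemia, the other lines differed and B6TC from neither. The places of RPL3, RPL6, RPL11, RPL27, RPL35A and RPS29 rest on calls against MDA-MB-231 that were lost under some alternatives, as given above. No comparison was called in 11 genes (22%, against 5.56%), namely RPL12, RPL14, RPL23A, RPL24, RPL32, RPL37A, RPLP1, RPS3, RPS12, RPS15 and RPS24. Other probe sets of RPL14 and RPL37A were called. RPL14 200074_s_at, with a mean level of 12.39, differed by -0.11 between B6TC and MDA-MB-231 and by 0.25 between B6TC and ZR-75-1, both called. An uncalled difference is not equality, and the precision is given by the SE of 0.038 to 0.074 per gene.

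By role, the proteins of the stalk, which recruits the elongation factors, were among those without a call. RPLP1 was at 13.46, 13.49 and 13.49 in B6TC, 13.49, 13.48 and 13.49 in MDA-MB-231 and 13.50, 13.52 and 13.49 in ZR-75-1. Its difference between B6TC and MDA-MB-231 had a 95% interval of -0.09 to 0.08, and that between B6TC and ZR-75-1 one of -0.11 to 0.06. RPL12, at the base of the stalk, differed by -0.11 between B6TC and MDA-MB-231 (95% interval -0.22 to -0.0069, adjusted p = 0.0591) and passed the threshold under 6 of the alternatives. The X-linked genes RPS4X and RPL39 went opposite ways. RPL39, by the exit of the peptide tunnel, was at 13.35, 13.34 and 13.38 in B6TC and at 13.54, 13.47 and 13.59 in ZR-75-1, a difference of -0.18. Of 5 tested genes whose proteins line the mRNA channel or decoding site, RPS9, RPS23 and RPS28 were higher in B6TC than in ZR-75-1, RPS3 and RPS15 were not called, and none was called against MDA-MB-231. Over all genes 84.4% were called against ZR-75-1 and 65% against MDA-MB-231, also beside the counts that follow. Of 14 tested genes mutated in Diamond-Blackfan anemia, B6TC had 2 higher and 3 lower against MDA-MB-231 and 7 higher and 2 lower against ZR-75-1 (35.7% and 64.3% called). By subunit, 10 of 30 large subunit genes and 3 of 20 small subunit genes were called between B6TC and MDA-MB-231, and 21 of 30 and 13 of 20 between B6TC and ZR-75-1, below those shares in each case. The difference between the subunits was not tested.

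The size of the differences went with the level of the probe set. At a mean level of 12 or more, 66 member probe sets were called in 28.8% of cases between B6TC and MDA-MB-231 and in 68.2% between B6TC and ZR-75-1, whereas the 281 other probe sets at that level were called in 59.1% and 84.7%. The median absolute difference there was 0.06 and 0.18 for members and 0.15 and 0.24 for the others. The 27 members under 12 were called in 66.7% and 74.1% of cases, with median absolute differences of 0.25 and 0.27, against 65.3% and 83.7% of the other tested probe sets under 12, with 0.26 and 0.60. All members that reached 2-fold, 2 against MDA-MB-231 and 5 against ZR-75-1, were under 12, and over all tested probe sets the shares that reached it were 3.85% and 30.7%. How far the top of the array's scale narrows the differences of abundant mRNAs was not tested.

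**Figure D3:**
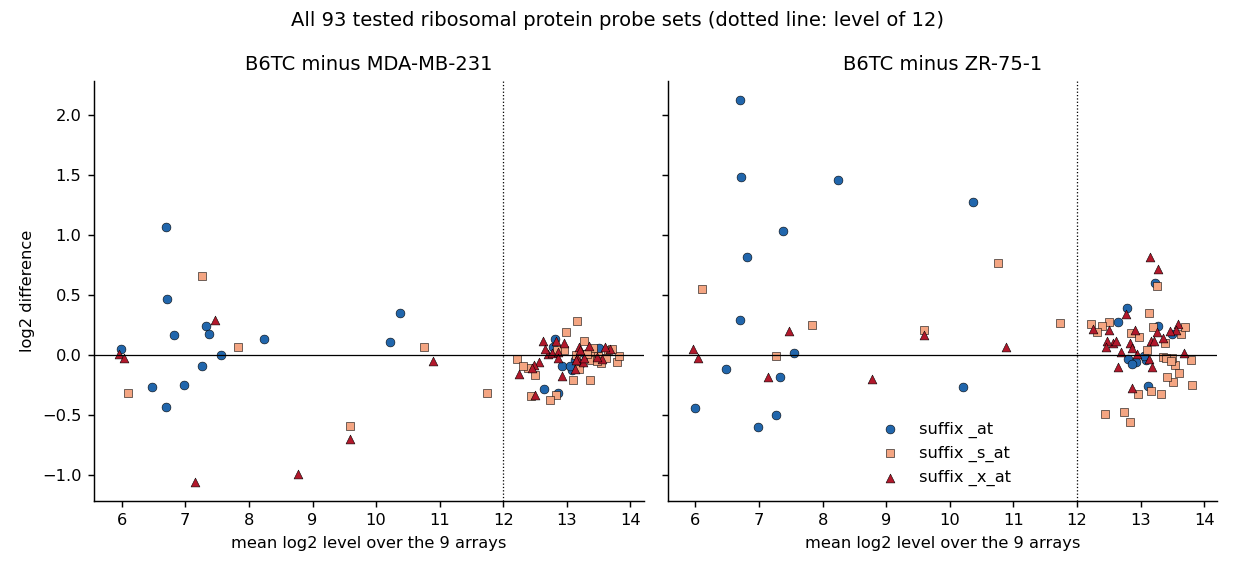
Log2 difference against the mean log2 level over the 9 arrays for the 93 tested ribosomal protein probe sets, for B6TC minus MDA-MB-231 (left) and B6TC minus ZR-75-1 (right), with the marker giving the suffix of the probe set. The 66 probe sets to the right of the dotted line at 12 stay within 0.82 of 0 in both panels, and the wide differences, up to 2.13, lie to its left.

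Probe sets of the same gene could disagree. There were 25 genes with more than 1 tested probe set. Calls of opposite sign within a gene occurred for RPL35A and RPS28 in the comparison of B6TC with MDA-MB-231, for RPS10 and RPS15A against ZR-75-1, and for RPL31, RPL37A and RPS15A in the comparison of MDA-MB-231 with ZR-75-1. RPL31, by the exit of the peptide tunnel, had the widest spread. Probe set 200962_at was at 7.73, 7.83 and 7.72 in B6TC, 6.66, 6.74 and 6.66 in MDA-MB-231 and 5.55, 5.62 and 5.73 in ZR-75-1. It was thus highest in B6TC, with a difference of 1.07 from MDA-MB-231 and one of 2.13 from ZR-75-1. The ZR-75-1 arrays lay under the level of 6 used as the filter, and with values under 6 taken as 6 the difference was 1.76. Probe set 200963_x_at, which represented RPL31 above, was at 13.40, 13.42 and 13.44 in B6TC and at 13.26, 13.31 and 13.25 in ZR-75-1, a difference of 0.14.

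The same held for other genes read by a bright and a dim probe set. RPS23, a protein of the decoding site, differed between B6TC and ZR-75-1 by 0.17 on 200926_at and by 1.46 on 227722_at, which was at 8.81, 8.69 and 8.82 in B6TC and at 7.36, 7.19 and 7.40 in ZR-75-1. RPL22 differed by 0.10 on 221775_x_at and by 1.28 on 221726_at, and RPL35A by 0.22 on 225190_x_at and by 1.48 on 238026_at, or 1.36 with the ZR-75-1 mean of 5.88 taken as 6. RPS15A, a small subunit protein, had opposite calls, with -0.33 on 200781_s_at, 0.82 on 235309_at and 0.25 for their mean. In 3 genes a dim probe set with the suffix _x_at fell in B6TC against MDA-MB-231. RPS10 214001_x_at was at 6.79, 6.81 and 6.61 in B6TC and at 7.92, 7.67 and 7.79 in MDA-MB-231, a difference of -1.06, while the 3 other probe sets of RPS10 lay between -0.03 and 0.07. RPL37A 214041_x_at differed by -0.99 and RPL38 221943_x_at by -0.70, against -0.05 and 0.01 on the probe sets that represented those genes. RPS6 disagreed among bright probe sets, with -0.03 on 201254_x_at, -0.34 on 200081_s_at and -0.38 on 209134_s_at between B6TC and MDA-MB-231. The probe sets of RPL37A, RPL38 and RPS6 given here were chosen after their values were seen. Which transcripts or pseudogenes each of these probe sets binds was not tested.

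**Figure D4:**
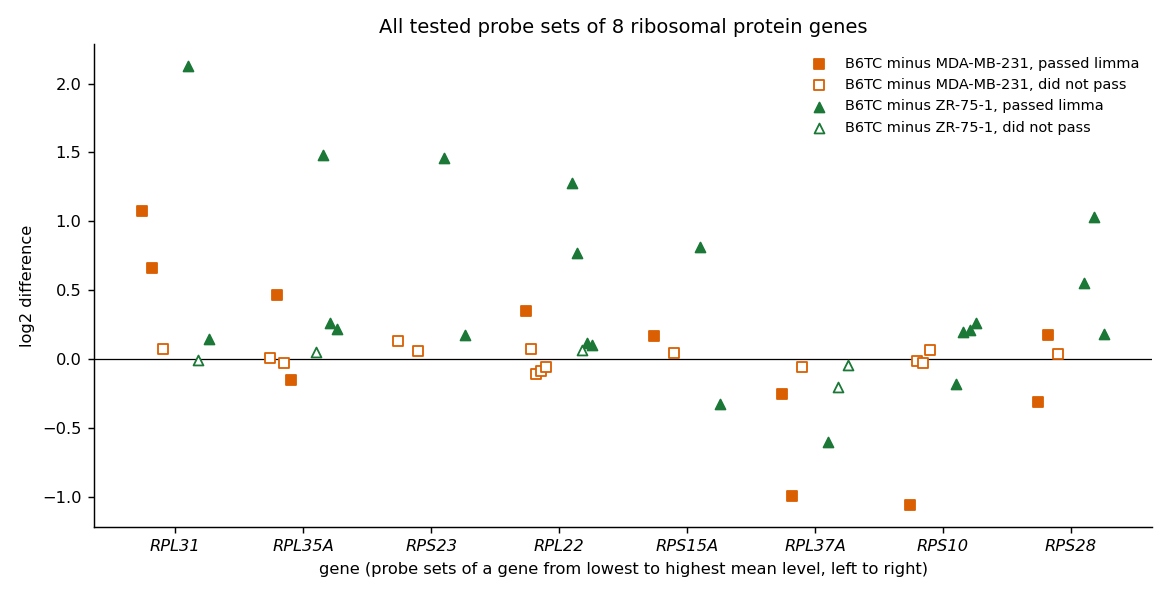
Log2 difference on every tested probe set of 8 ribosomal protein genes, for B6TC minus MDA-MB-231 (squares) and B6TC minus ZR-75-1 (triangles), with filled markers where limma's adjusted p was 0.05 or less. The brightest probe set of a gene, the rightmost of each cluster, stays within 0.33 of 0 while dimmer ones reach 2.13 (RPL31) and -1.06 (RPS10).

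In the comparisons with ZR-75-1, the difference of a ribosomal protein gene went with that of the genes beside it. For each of the 50 genes the median difference was taken over the nearest measured genes that are no members, 5 on either side in GRCh38.p14 (6 in all for 1 gene). Across the genes the Pearson correlation of a member with this median was 0.576 (Spearman 0.529) between B6TC and ZR-75-1, with the same sign in 31 of 50. It was 0.652 (Spearman 0.599) for MDA-MB-231 against ZR-75-1 and 0.0663 (Spearman 0.113) for B6TC against MDA-MB-231. These are descriptions over 50 genes of the same arrays, and some members share neighbours. The correlation was not computed for other genes, so whether it is particular to ribosomal protein genes was not tested. RPL19 differed by 0.60 between B6TC and ZR-75-1 and its neighbours by a median of 0.60, with 9 of 10 neighbours higher. RPL27 differed by 0.58 and its neighbours by 0.64, again with 9 of 10 higher. RPS27, on chromosome 1, differed by -0.32 and its neighbours by -0.74, with 9 of 10 lower. RPS4X differed by 0.72 and its neighbours by 1.48. Other large differences did not go with the neighbours. RPL34 differed by 0.39 with a median of -0.14 for its neighbours, RPL38 by 0.34 with -0.07, RPL37 by -0.22 with 0.29 and RPS15A by -0.33 with 0.03.

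RPL30 followed its neighbours in every comparison. On chromosome 8 it differed by 0.29 between B6TC and MDA-MB-231, where its neighbours had a median of 0.41 and 9 of 10 were higher, and by -0.59 between MDA-MB-231 and ZR-75-1, where the neighbours had a median of -0.99. The other members on chromosome 8 were RPL8, with a difference of -0.26 between B6TC and ZR-75-1 and a median of -0.20 for its neighbours, and RPL7, which differed by -0.10 where its neighbours had a median of 0.34. RPL9 went against its neighbours on chromosome 4 between B6TC and MDA-MB-231, with -0.33 for the gene, a median of 0.37 for the neighbours and 8 of 10 of them higher. RPS12, on chromosome 6, differed by 0.06 between B6TC and ZR-75-1 among neighbours that differed by a median of 1.41, a gene chosen after its values were seen.

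**Figure D5:**
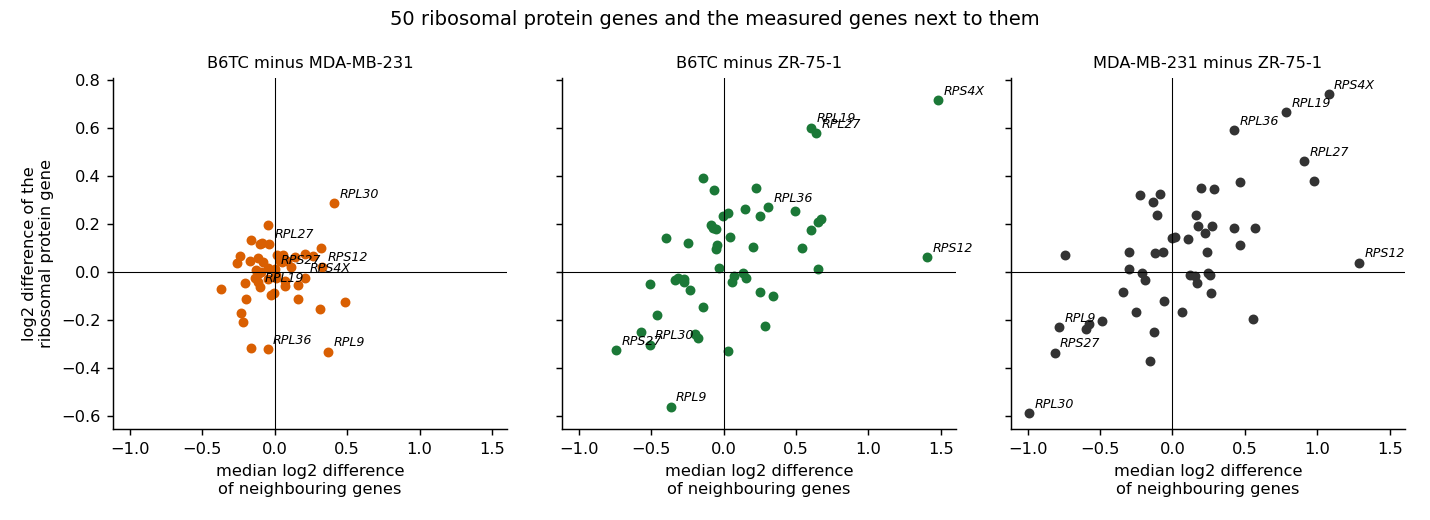
Log2 difference of each of 50 ribosomal protein genes (y axis) against the median log2 difference of the 5 nearest measured genes on either side of it (x axis), in each comparison of lines. Points spread along a rising line in the comparisons with ZR-75-1, where RPS4X, RPL19 and RPL27 lie at upper right and RPS27 at lower left, and in B6TC minus MDA-MB-231 they gather near 0.

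Other genes of translation are given for comparison, from lists with 1 probe set per gene, beside 65% of all genes called against MDA-MB-231 and 84.4% against ZR-75-1. FAU, whose product is cut to a small subunit protein, was at 12.16, 12.22 and 12.25 in B6TC, 11.98, 12.07 and 11.89 in MDA-MB-231 and 12.61, 12.59 and 12.57 in ZR-75-1, so that B6TC lay between the lines as for RPL30. Of 6 tested paralogs with an L suffix, B6TC had 3 higher and 1 lower against MDA-MB-231 and 3 higher and 2 lower against ZR-75-1 (66.7% and 83.3% called). RPL36AL differed by 0.47 from MDA-MB-231, RPL7L1 by 1.18 from ZR-75-1 and RPS27L by -0.33 from MDA-MB-231 and by -0.64 from ZR-75-1. Of 13 elongation factors and other TOP mRNAs, 6 were higher and 3 lower than in MDA-MB-231 and 5 were higher and 6 lower than in ZR-75-1 (69.2% and 84.6%). EEF2, which moves the ribosome along the mRNA, differed by 0.21 from MDA-MB-231 and by -0.93 from ZR-75-1.

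Among 25 tested initiation factors and genes of the mTOR pathway, B6TC had 6 higher and 12 lower against MDA-MB-231 and 10 higher and 7 lower against ZR-75-1 (72% and 68% called). RPS6KB1, the kinase of the RPS6 protein, was at 8.07, 8.12 and 8.29 in B6TC, 8.60, 8.51 and 8.47 in MDA-MB-231 and 11.02, 11.07 and 11.05 in ZR-75-1, a difference of -2.88 between B6TC and ZR-75-1. DEPTOR, an inhibitor of mTOR, was at 6.15, 6.39 and 5.91 in B6TC, 4.28, 4.51 and 4.92 in MDA-MB-231 and 7.56, 7.67 and 7.68 in ZR-75-1. B6TC differed from ZR-75-1 by -1.48 and lay near the filter level of 6, and MDA-MB-231 lay under it, where with values under 6 taken as 6 the difference is 0.15. EIF5A was above both lines, by 1.21 against MDA-MB-231 and 1.14 against ZR-75-1. Of 29 ribosome biogenesis genes, 11 were higher and 5 lower than in MDA-MB-231 and 20 were higher and 6 lower than in ZR-75-1 (55.2% and 89.7%), with medians of 0.05 and 0.37 against 0.036 and -0.0050 over all genes. MYC, whose product drives ribosome production, was higher by 0.80 against MDA-MB-231 and 1.28 against ZR-75-1, and BYSL, needed for the small subunit, by 1.52 against ZR-75-1, whereas NMD3, which exports the large subunit, differed by -1.51 from ZR-75-1. Of 75 mitochondrial ribosomal protein genes, 26 were higher and 31 lower than in MDA-MB-231 and 27 were higher and 35 lower than in ZR-75-1, a share called of 76% and 82.7%, and they ran as far as -2.27 for MRPS21 and 2.00 for MRPS6 against ZR-75-1.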

How the data were processed

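The authors deposited log2 expression values for 9 arrays. The submitters' processing notes name Affymetrix Expression Console and RMA without versions, and the study's methods name GC-RMA instead, so the background correction of the values is not settled. For RNA the labels give Trizol and RNeasy and the methods another kit. Probe sets (54675 less 62 controls) were named from the platform annotation, with symbols updated by gene identifier against GRCh38.p14. Those at 6 or more on at least 3 arrays were tested with limma 3.58.1 in R 4.3.3, 1 mean per line (6 residual and 3.68 prior degrees of freedom), with Benjamini-Hochberg adjustment over all 21095 and calls at an adjusted p of 0.05 or less. The fit was tested on simulated data. Genes named are the 8 largest called changes of each sign per comparison without overlap of arrays, genes of short role lists, genes with the widest disagreement between probe sets and the 4 largest changes of each list, of which the text gives some. RPL5, RPL10, RPLP0, RPSA and RPS27A had no single-symbol probe set analysed here. Members and lists were chosen with earlier results of these data known. The number of arrays limits the precision. Alternatives covered filters, scaling, variance models, probe sets per gene, a replicate block and single arrays left out. Numbers of replicates did not pair arrays.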

Additional observations from a re-analysis of the deposited data

How the results depend on the processing

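On the probe set that represented a gene, no called difference changed sign under the alternatives. With the mean of a gene's probe sets, or the brightest probe set without a suffix (tested for 21 genes), a called difference took the opposite sign in 1 gene in each comparison, a check chosen after seeing the data. That gene was RPL35A between B6TC and MDA-MB-231 (-0.15 on the probe set shown, 0.073 with the mean, 0.47 without suffix) and RPS15A in the comparisons with ZR-75-1 (-0.33, 0.25 and 0.82 for B6TC, -0.37, 0.14 and 0.65 for MDA-MB-231). Between B6TC and MDA-MB-231 the members called higher numbered 24 with robust regression and 24 after a further quantile normalization, 9 with a filter on level and variation, 7 without probe sets of suffix _s_at, _x_at or _a_at, 5 with 1 probe set per gene, 8 with the mean of a gene's probe sets and 1 at 2-fold or more. Those lower numbered 35, 21, 14, 6, 8, 15 and 1 under the same settings. The median difference was 0.036 after quantile normalization, 0.016 with arrays centered, -0.076 with the filter on variation, 0.0102 without the suffixed probe sets and 0.0058 with 1 probe set per gene. Between B6TC and ZR-75-1 the filter on variation left 19 higher and 9 lower, no suffixed probe sets 12 and 6, 1 probe set per gene 23 and 11, the mean of probe sets 25 and 12, and 2-fold 5 and 0, where limma without the fold minimum called 19 lower. The median was 0.079 with 1 probe set per gene, 0.13 with centered arrays, 0.047 with cyclic loess, 0.27 with the filter on variation, 0.072 with the mean of probe sets, 0.061 without a filter, 0.0196 without suffixed probe sets (0.0379 over all such probe sets) and 0.0927 to 0.102 with single arrays left out. Between MDA-MB-231 and ZR-75-1 the corresponding counts were 21 and 9, 14 and 7, 22 and 12, 28 and 12, and 3 and 0, and the median was 0.66 with the filter on variation, 0.11 after quantile normalization, 0.071 with cyclic loess and 0.081 with 1 probe set per gene. The cause of these shifts was not tested, except that filters and single probe sets per gene test fewer probe sets.

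Leaving out single arrays gave 10 to 17 members higher and 16 to 24 lower between B6TC and MDA-MB-231 and 41 to 48 higher and 17 to 20 lower between B6TC and ZR-75-1. Same-numbered arrays correlated at -0.102 to 0.176 in their deviations from the line means, with 1 of 9 pairs above 0.1, and 3 of 9 arrays correlated best with their own number, so the numbers do not pair the arrays. With the replicate block 12 members were higher and 20 lower between B6TC and MDA-MB-231, 45 and 17 between B6TC and ZR-75-1, and 49 and 20 between MDA-MB-231 and ZR-75-1. Among repeated calls of the named genes on their own probe sets, without the 2-fold minimum, which none of them reached, 959 kept their side of the threshold, 28 lost the call, all between B6TC and MDA-MB-231 (RPL6, RPL3, RPL27, RPL35A, RPS29, RPL11), and 9 gained one, all RPL12.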
